A study of Homo sapiens with 24 samples.

Results

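The chaperones of the endoplasmic reticulum described here are 10 genes, taken by symbol from a deposited table of 60564 genes: HSPA5, HYOU1, HSP90B1, DNAJB9, DNAJC3, SDF2L1, PDIA3, PDIA4, PDIA6 and CALR. All 10 were found, each in a single row, and all 10 passed the filter on low values (at least 1 FPKM in at least 3 libraries). RNA sequencing had been done in 2 human neuroblastoma cell lines, SK-N-BE(2) and SH-SY5Y, in 24 libraries that formed 8 groups of 3. NDUFS6 encodes a subunit of complex I, the first enzyme of the mitochondrial respiratory chain. In each line 1 group carried a lentiviral short hairpin against NDUFS6 (knockdown) and was set against cells with the matching empty vector (knockdown control). A further group carried the NDUFS6 coding sequence (overexpression) and was set against its own empty vector cells (overexpression control). All groups, controls included, had been exposed to lentivirus and polybrene and selected with puromycin, so no group was unmanipulated, and each was a selected population of a cell line. The sources used here do not give the promoter of the vectors or the hairpin sequences. By the labels all 24 libraries are of 1 batch and those of a group are biological replicates, with nothing on separate infections. The p-values therefore rest on library-to-library spread within groups, part of which may be technical.

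All are protein-coding genes. In the hg38 build with the GENCODE release 29 annotation, HSPA5 lies at chr9:125234853-125241330 (minus strand), HYOU1 at chr11:119044189-119057202 (minus) and HSP90B1 at chr12:103930107-103953645 (plus). DNAJB9 lies at chr7:108569568-108574850 (plus), DNAJC3 at chr13:95677139-95794989 (plus) and SDF2L1 at chr22:21642261-21644298 (plus). PDIA3 lies at chr15:43746392-43773279 (plus), PDIA4 at chr7:149003062-149028641 (minus), PDIA6 at chr2:10783391-10837977 (minus) and CALR at chr19:12938578-12944489 (plus).

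Proteins that enter the secretory pathway fold in the endoplasmic reticulum. HSPA5, also called BiP, is the Hsp70 chaperone there: it binds unfolded chains, J-domain proteins hand clients to it, and nucleotide exchange factors make it let go. HSP90B1 is the Hsp90 of the compartment, CALR is a lectin that holds glycoproteins together with the disulfide isomerase PDIA3, and PDIA4 and PDIA6 are further members of the protein disulfide isomerase family. When unfolded chains accumulate, the sensors ERN1, EIF2AK3 and ATF6 start the unfolded protein response, in which the transcription factors XBP1, ATF6 and ATF4 raise genes for folding and disposal. Many chaperone genes carry a promoter motif read by ATF6 and XBP1, the endoplasmic reticulum stress response element (ERSE), first worked out on the promoters of HSPA5, HSP90B1 and CALR.

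The promoters of the chaperones were searched for this element (RefSeq promoter table, GRCh38.p14, 250 bases before to 50 bases after the start, both strands). A promoter was matched for 9 of the 10 genes, all but PDIA3. ERSE was searched as CCAAT and CCACG with 9 bases of any kind between them, its shorter form ERSE-II as ATTGG and CCACG with 1 base between them, and the core of the unfolded protein response element (UPRE) as TGACGTGG. The matches are printed 5′ to 3′ on the strand of the motif, with the fixed letters in capitals.
HSPA5 ERSE: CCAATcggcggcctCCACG
HSP90B1 upstream ERSE: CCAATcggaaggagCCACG
HSP90B1 downstream ERSE: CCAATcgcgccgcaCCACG
CALR ERSE: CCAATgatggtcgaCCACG
SDF2L1 ERSE-II: ATTGGtCCACG
HYOU1 upstream ERSE-II: ATTGGaCCACG
HYOU1 downstream ERSE-II: ATTGGaCCACG
HYOU1 UPRE core: TGACGTGG

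The HSPA5 match lay 66 to 48 bases before the start (chr9:125241391-125241409, on the strand of the gene). HSP90B1 held matches at 194 to 176 bases (chr12:103930216-103930234) and at 89 to 71 bases before its start (chr12:103930321-103930339), the second on the opposite strand. The CALR match lay at 225 to 207 bases (chr19:12938384-12938402), on the opposite strand. The ERSE-II of SDF2L1 lay at 188 to 178 bases (chr22:21642114-21642124), and the ones of HYOU1 at 185 to 175 bases (chr11:119057380-119057390) and 79 to 69 bases (chr11:119057274-119057284), all on the opposite strand. The UPRE core of HYOU1 overlapped its upstream ERSE-II. The promoters of DNAJB9, DNAJC3, PDIA4 and PDIA6 held none of these spellings in the window.

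Among all 27305 promoters of the table, 22 held ERSE (0.0806%), 15 held ERSE-II (0.0549%) and 217 held the UPRE core (0.795%). Of the 9 chaperone promoters, 3 held ERSE, 2 held ERSE-II and 1 held the UPRE core, so 5 of 9 had at least 1 of them, against 253 of 27305 (0.927%). The 3 with ERSE were HSPA5, HSP90B1 and CALR, the promoters on which the element was first worked out. Their matches were therefore known beforehand, and the comparison with all promoters is no independent result for them. HSP90B1 was the single promoter of the table with 2 matches to ERSE. A match describes letters and is no evidence of binding in these cells. The 250 bases before the start of HSPA5 (chr9:125241344-125241593, minus strand), the chaperone that changed most, are printed to show where its ERSE sits, with the fixed letters in capitals.
HSPA5 upstream: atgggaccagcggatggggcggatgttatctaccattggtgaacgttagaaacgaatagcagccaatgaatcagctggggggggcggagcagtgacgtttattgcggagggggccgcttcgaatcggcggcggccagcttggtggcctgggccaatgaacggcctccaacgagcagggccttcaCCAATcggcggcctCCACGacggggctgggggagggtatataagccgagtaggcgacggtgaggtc

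The knockdown check held in both lines. NDUFS6 was measured at 1.09, 1.61 and 1.3 FPKM (mapped fragments scaled by transcript length and library size) in SK-N-BE(2) knockdown libraries, against 9.29, 12.2 and 11.9 FPKM in their controls. In SH-SY5Y it was at 3.11, 3.98 and 4.98 FPKM in knockdown libraries, against 11.2, 11.1 and 12.1 FPKM in their controls. Overexpression was unequal between the lines. NDUFS6 stood at 214, 211 and 199 FPKM in SH-SY5Y overexpression libraries, against 10.2, 11.5 and 11.2 FPKM in their controls. In SK-N-BE(2) it stood at only 14.9, 17.8 and 19.0 FPKM in overexpression libraries, against 11.8, 13.9 and 12.7 FPKM in their controls, a difference of 0.39 ± 0.12 (log2, SE) that was called (limma adjusted p below 0.05) but not in 6 of 15 alternatives, with 0.33 to 0.39 in the 4 of them that left out overexpression replicate 2 or 3 or overexpression control replicate 1 or 3. Read counts are not given, so the depth per library is unknown. The summed FPKM lay between 249708 and 276091 per library, and 12607 to 14018 genes per library had at least 1 FPKM.

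All 10 chaperones were higher in SK-N-BE(2) NDUFS6 knockdown libraries than in their controls. Changes are differences of mean log2(FPKM + 1) from limma with their SE, and calls needed an adjusted p (Benjamini-Hochberg, all tested genes) under 0.05. Of 10 chaperones, 10 were called higher, and of 15902 tested genes 27.4% were called higher and 55.7% in either direction. For all 10 the knockdown libraries lay above every control library, as they did for 30.3% of tested genes, and 62.2% had groups apart in either direction. The median change of the 10 was 2.48 on the log2 scale, against -0.01 over all tested genes, with a range of 1.27 (PDIA6) to 3.83 (HSPA5). Ordered by rise among the 15902 genes, HSPA5 came 10th, DNAJB9 16th and SDF2L1 18th, 8 of the 10 were among the 100 largest rises, and all 10 were among the 500 largest.

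**Figure D1:**
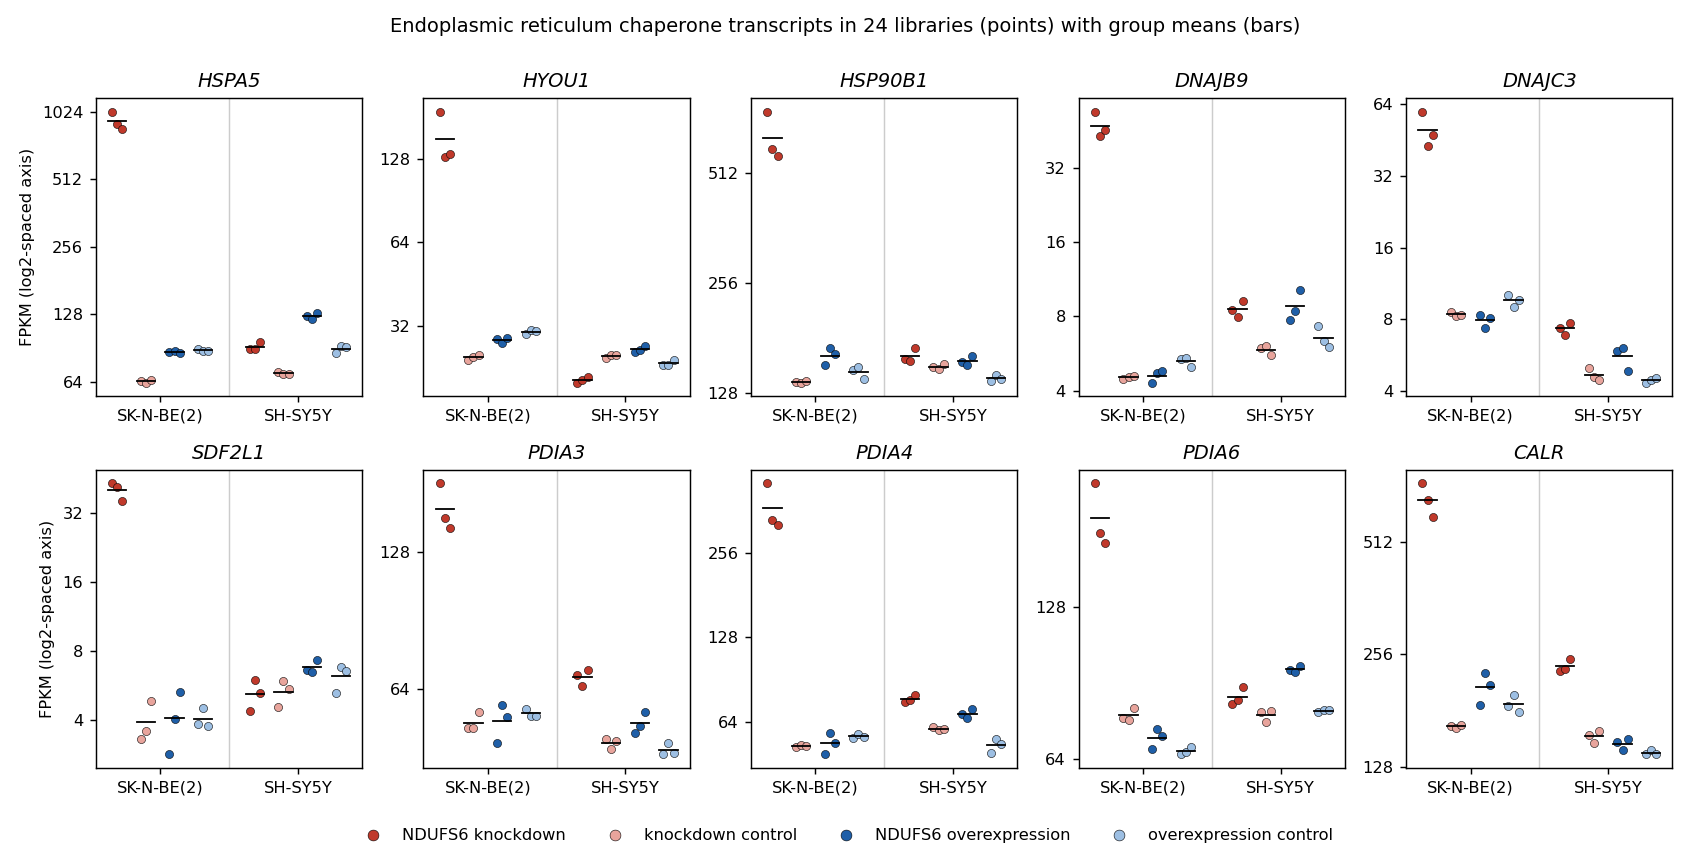
Level of each chaperone in FPKM (vertical axis, spaced by log2) in the 24 libraries, with 3 points and a bar for the mean per group, SK-N-BE(2) on the left and SH-SY5Y on the right of each panel. In every panel the 3 SK-N-BE(2) knockdown libraries lie above all 21 others, as for HSPA5 with 858 to 1024 FPKM in knockdown libraries and 63.3 to 129 FPKM elsewhere.

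HSPA5, the central Hsp70 of the compartment, was at 1024, 901 and 858 FPKM in SK-N-BE(2) knockdown libraries, against 64.6, 63.3 and 64.9 FPKM in their controls. The groups were far apart and the controls nearly equal: the ratio of means was 14.4 and the change 3.83 ± 0.05 (limma adjusted p = 2.72e-21). HYOU1, an atypical large Hsp70 that acts as a nucleotide exchange factor for HSPA5, was at 189, 130 and 133 FPKM in knockdown libraries, against 24.3, 24.8 and 25.2 FPKM in controls. It changed by 2.54 ± 0.08 (limma adjusted p = 3.28e-15).

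The J-domain proteins started low and rose steeply. DNAJB9, a partner of HSPA5 that also holds the sensor ERN1 in check, was at 53.9, 43.0 and 45.3 FPKM in knockdown libraries, against 4.47, 4.55 and 4.61 FPKM in controls, a ratio of 10.4 (change 3.12 ± 0.09). DNAJC3, a partner of HSPA5 first known as an inhibitor of stress kinases, was at 59.7, 42.7 and 47.7 FPKM in knockdown libraries, against 8.59, 8.24 and 8.35 FPKM in controls (change 2.43 ± 0.09). SDF2L1, a small protein that works with J-domain partners of HSPA5, was at 43.1, 41.6 and 36.3 FPKM in knockdown libraries, against 3.30, 3.57 and 4.86 FPKM in controls. The SDF2L1 controls were the most uneven of the 10 in relative terms, and its change carried the largest SE (3.08 ± 0.15, ratio of means 10.3). For the low genes the added pseudocount of 1 FPKM makes the log2 change smaller than the ratio of means.

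HSP90B1 was at 756, 597 and 571 FPKM in knockdown libraries, against 137, 137 and 138 FPKM in controls (change 2.20 ± 0.07). CALR was at 732, 661 and 595 FPKM in knockdown libraries, against 165, 163 and 165 FPKM in controls (change 2.00 ± 0.07). These were the most abundant chaperones of the control cells, and they changed less than HSPA5.

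The 3 disulfide isomerases changed unequally. PDIA4 was at 452, 335 and 321 FPKM in knockdown libraries, against 52.1, 52.9 and 52.4 FPKM in controls, a ratio of 7.04 (change 2.77 ± 0.09). PDIA3 was at 181, 152 and 145 FPKM in knockdown libraries, against 52.6, 52.5 and 57.1 FPKM in controls, a ratio of 2.95 (change 1.54 ± 0.07). PDIA6 was at 224, 179 and 171 FPKM in knockdown libraries, against 77.2, 76.5 and 80.9 FPKM in controls, a ratio of 2.45 (change 1.27 ± 0.07). PDIA4 thus stood level with PDIA3 in control cells and above both other isomerases in knockdown cells. Whether the isomerases differ from each other in their change was not tested.

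Knockdown replicate 1 had the highest value of the 3 knockdown libraries for 10 of 10 chaperones. Without it the changes were 3.75 ± 0.04 for HSPA5, 2.62 ± 0.06 for PDIA4, 2.36 ± 0.03 for HYOU1 and 1.15 ± 0.04 for PDIA6, and all 10 chaperones remained called. The SE is drawn from all 8 groups together, so it is not the uncertainty of the knockdown group alone. In the main fit it was 0.08 for HYOU1 and 0.07 for PDIA6, larger than without this library. Over the alternatives the limma adjusted p reached at most 1.78e-08 for HSPA5 and 1.68e-05 for PDIA6. Against the overexpression controls of SK-N-BE(2) all 10 were called too, with changes of 1.47 for PDIA3 to 3.37 for HSPA5.

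In SK-N-BE(2) knockdown libraries the 10 chaperones summed to 3239.7 ± 418 FPKM, against 592 ± 8.59 FPKM in their controls (SD, n = 3 each). Their share of all FPKM was 1.28 ± 0.18% in knockdown libraries and 0.218 ± 0.003% in controls. In the other 6 groups the mean share lay between 0.229% and 0.278%. The make-up of the sum shifted toward HSPA5, which held 28.7 ± 1.0% of it in knockdown libraries and 10.8 ± 0.10% in controls. PDIA6 held 5.90 ± 0.12% in knockdown libraries and 13.2 ± 0.21% in controls, and CALR held 20.5 ± 0.88% in knockdown libraries and 27.7 ± 0.27% in controls. HSPA5 was the most abundant of the 10 in knockdown cells and the 4th most abundant in their controls, behind CALR, HSP90B1 and PDIA6.

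**Figure D2:**
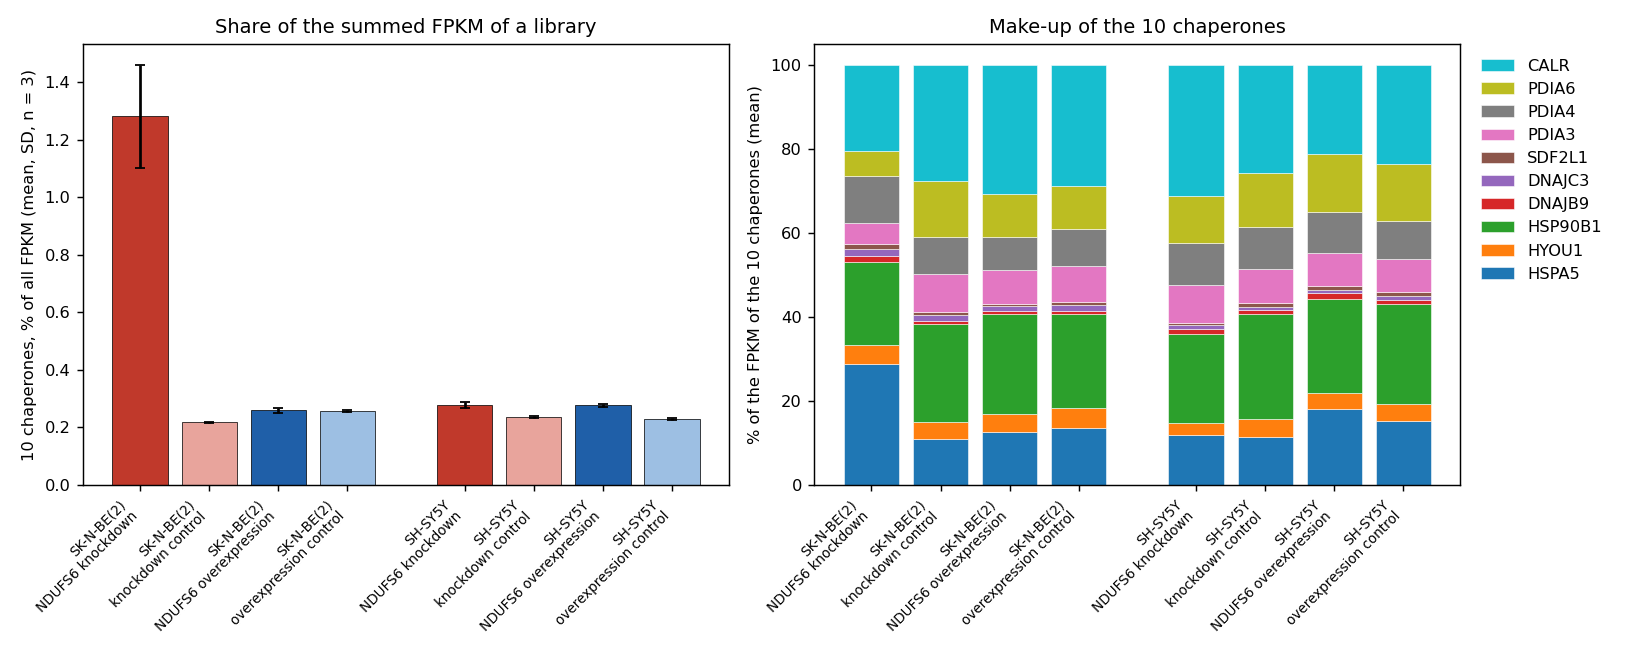
Left, share of the summed FPKM of a library taken by the 10 chaperones (percent, mean with SD, 3 libraries per group); right, how that sum divides between the 10 genes (percent, group means). The SK-N-BE(2) knockdown group stands at 1.28% and every other group at 0.278% or less, and its HSPA5 segment is 28.7% of the bar, against 10.8% in its control.

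In SH-SY5Y, the knockdown comparison gave small changes in both directions. Of 10 chaperones, 6 were called higher and 1 lower, and of all tested genes 26.3% were called higher, 29.6% lower and 56.0% in either direction. The median change of the 10 was 0.37, against -0.01 over all genes. Groups did not overlap for 9 of the 10, SDF2L1 being the exception, and 64.5% of tested genes had groups that did not overlap.

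CALR was at 231, 234 and 249 FPKM in SH-SY5Y knockdown libraries, against 156, 149 and 160 FPKM in their controls, the largest change there (0.62 ± 0.07, limma adjusted p = 1.35e-07). DNAJC3 was at 7.33, 6.85 and 7.73 FPKM in knockdown libraries, against 5.00, 4.56 and 4.42 FPKM in controls (change 0.55 ± 0.09). DNAJB9 was at 8.53, 8.0 and 9.26 FPKM in knockdown libraries, against 5.94, 6.08 and 5.60 FPKM in controls (change 0.48 ± 0.09). The isomerases that rose were PDIA3 (change 0.47 ± 0.07) and PDIA4 (change 0.34 ± 0.09). PDIA3 averaged 68.1 ± 2.69 FPKM in knockdown libraries and 48.8 ± 1.26 FPKM in controls, and PDIA4 averaged 76.9 ± 2.18 FPKM in knockdown libraries and 60.4 ± 0.88 FPKM in controls (SD, n = 3 each).

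HSPA5 was at 89.2, 89.7 and 96.1 FPKM in SH-SY5Y knockdown libraries, against 70.8, 69.0 and 69.3 FPKM in their own controls (change 0.39 ± 0.05, limma adjusted p = 1.07e-06). Against the overexpression controls of the line, with 85.9, 92.5 and 91.4 FPKM, the change was 0.03 ± 0.05 (limma adjusted p = 0.665), so this call rested on which empty vector was used. HYOU1 was the chaperone called lower, at 20.1, 20.6 and 21.1 FPKM in knockdown libraries, against 24.6, 25.3 and 25.2 FPKM in controls (change -0.27 ± 0.08, limma adjusted p = 0.00955). Against the other control it was -0.19 ± 0.08 (limma adjusted p = 0.0602). The 3 chaperones not called were HSP90B1 (0.10 ± 0.07), PDIA6 (0.11 ± 0.07) and SDF2L1 (-0.03 ± 0.15), and HSP90B1 was called at 0.20 ± 0.07 against the other control (limma adjusted p = 0.019). In a fit of only the groups compared, HSP90B1 (limma adjusted p = 0.0405) and PDIA6 (limma adjusted p = 0.0245) were called higher.

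The knockdown change differed between the lines for every chaperone. The difference of the changes (SK-N-BE(2) minus SH-SY5Y, the interaction term of the same fit) was called higher in SK-N-BE(2) for 10 of 10 chaperones, and for 29.5% of all tested genes. It ran from 1.07 ± 0.10 for PDIA3 to 3.44 ± 0.07 for HSPA5. SDF2L1 differed by 3.11 ± 0.21 and HYOU1 by 2.81 ± 0.12. The order of the genes was not shared: CALR, first in SH-SY5Y, was 8th in SK-N-BE(2), and SDF2L1 and HYOU1, the lowest in SH-SY5Y, were 3rd and 5th in SK-N-BE(2). NDUFS6 was left at different levels in the knockdown cells of the lines, and the labels do not say whether both lines carried the same hairpin, so the line, the hairpin and the depth of the knockdown cannot be told apart here.

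Overexpression in SK-N-BE(2), where NDUFS6 itself moved little, left the chaperones close to their controls. Of 10, none was called higher and 1 was called lower, against 12.9% of tested genes called higher, 16.8% lower and 29.7% in either direction. The number of genes called there, 4715, was 2745 without overexpression replicate 2 and 3075 without overexpression control replicate 3. At an unadjusted p under 0.05, limma had CALR higher and DNAJC3 lower. DNAJC3 was at 8.34, 7.34 and 8.05 FPKM in overexpression libraries, against 10.1, 9.0 and 9.63 FPKM in controls (change -0.25 ± 0.09, limma adjusted p = 0.0429). That call was lost in 8 of 15 alternatives. Among them were the fits without overexpression replicate 2 (-0.20) or 3 (-0.26) and without overexpression control replicate 1 (-0.21) or 3 (-0.24). Without overexpression replicate 1, CALR was called higher (0.22 ± 0.06, limma adjusted p = 0.0101). HSPA5 was at 86.4, 87.3 and 86.3 FPKM in overexpression libraries, against 89.6, 88.1 and 87.4 FPKM in controls (change -0.03 ± 0.05, limma adjusted p = 0.719). Against the knockdown controls of the line, with 64.6, 63.3 and 64.9 FPKM, HSPA5 turned to 0.43 ± 0.05 (limma adjusted p = 1.35e-06), and CALR (0.34 ± 0.07) and HSP90B1 (0.24 ± 0.07) were called higher as well.

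In SH-SY5Y overexpression libraries 6 of 10 chaperones were called higher and none lower (none lower either at an unadjusted limma p under 0.05). Of all tested genes, 15.4% were called higher, 17.2% lower and 32.6% in either direction. The median change of the 10 was 0.23, against -0.01 over all genes. HSPA5 was at 126, 121 and 129 FPKM in overexpression libraries, against 85.9, 92.5 and 91.4 FPKM in controls (change 0.47 ± 0.05, limma adjusted p = 5.18e-07). It was the HSPA5 level next below that of SK-N-BE(2) knockdown cells, and against the other control its change was 0.84 ± 0.05.

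PDIA6 had not been called in the main fit for the knockdown of this line. In SH-SY5Y overexpression libraries it was at 96.0, 95.3 and 98 FPKM, against 79.2, 79.9 and 79.9 FPKM in controls (change 0.27 ± 0.07, limma adjusted p = 0.00322). DNAJB9 was at 7.76, 8.39 and 10.2 FPKM in overexpression libraries, against 7.34, 6.38 and 6.0 FPKM in controls (change 0.37 ± 0.09). PDIA4 changed by 0.37 ± 0.09 against its own control and by 0.17 ± 0.09, no longer called, against the other (limma adjusted p = 0.0986). The calls of DNAJC3 (0.28 ± 0.09) and PDIA3 (0.19 ± 0.07) were close to the threshold, and were lost in 5 and 9 of 15 alternatives. DNAJC3 was not called without overexpression replicate 1 (0.24) or 2 (0.22), nor without overexpression control replicate 1 (0.26) or 2 (0.28). PDIA3 was called in 1 of the 6 fits with a library left out, the fit without overexpression replicate 1, and its change in the other 5 was 0.15 to 0.22. CALR, HSP90B1, HYOU1 and SDF2L1 had changes of 0.08 to 0.16 and were not called in the main fit. In a fit of only the groups compared, HSP90B1 (limma adjusted p = 0.00881) and HYOU1 (limma adjusted p = 0.00847) were called higher. Against the other control 4 chaperones were called higher, and CALR turned to -0.07 ± 0.07 (limma adjusted p = 0.433).

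The overexpression change was lower in SK-N-BE(2) than in SH-SY5Y for 4 chaperones and higher for none (none either at an unadjusted limma p under 0.05), against 18.5% of tested genes lower, 18.3% higher and 36.8% in either direction. The differences were -0.53 ± 0.13 for DNAJC3, -0.53 ± 0.12 for DNAJB9, -0.50 ± 0.07 for HSPA5 and -0.45 ± 0.12 for PDIA4. Since NDUFS6 was raised far more in SH-SY5Y, the line and the amount of NDUFS6 cannot be told apart in this difference.

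The 2 empty vector controls of a line, which share neither NDUFS6 construct, differed in HSPA5 as much as the smaller effects did. In SK-N-BE(2), HSPA5 averaged 64.2 ± 0.87 FPKM in knockdown controls and 88.4 ± 1.11 FPKM in overexpression controls (change -0.45 ± 0.05, limma adjusted p = 5.4e-07). In SH-SY5Y it averaged 69.7 ± 1.0 FPKM in knockdown controls and 89.9 ± 3.59 FPKM in overexpression controls (change -0.36 ± 0.05, limma adjusted p = 8.41e-06). HSPA5 was the 1 chaperone called between the SH-SY5Y controls, where 36.2% of tested genes were called. Between the SK-N-BE(2) controls 4 were called, where 34.5% of tested genes were: HSPA5, HYOU1 (-0.29 ± 0.08) and CALR (-0.19 ± 0.07) lower and PDIA6 (0.23 ± 0.07) higher in knockdown controls. The call of CALR held in 1 of the 6 fits with a library left out, the fit without overexpression control replicate 3, and in the other 5 its change was -0.15 to -0.20.

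**Figure D3:**
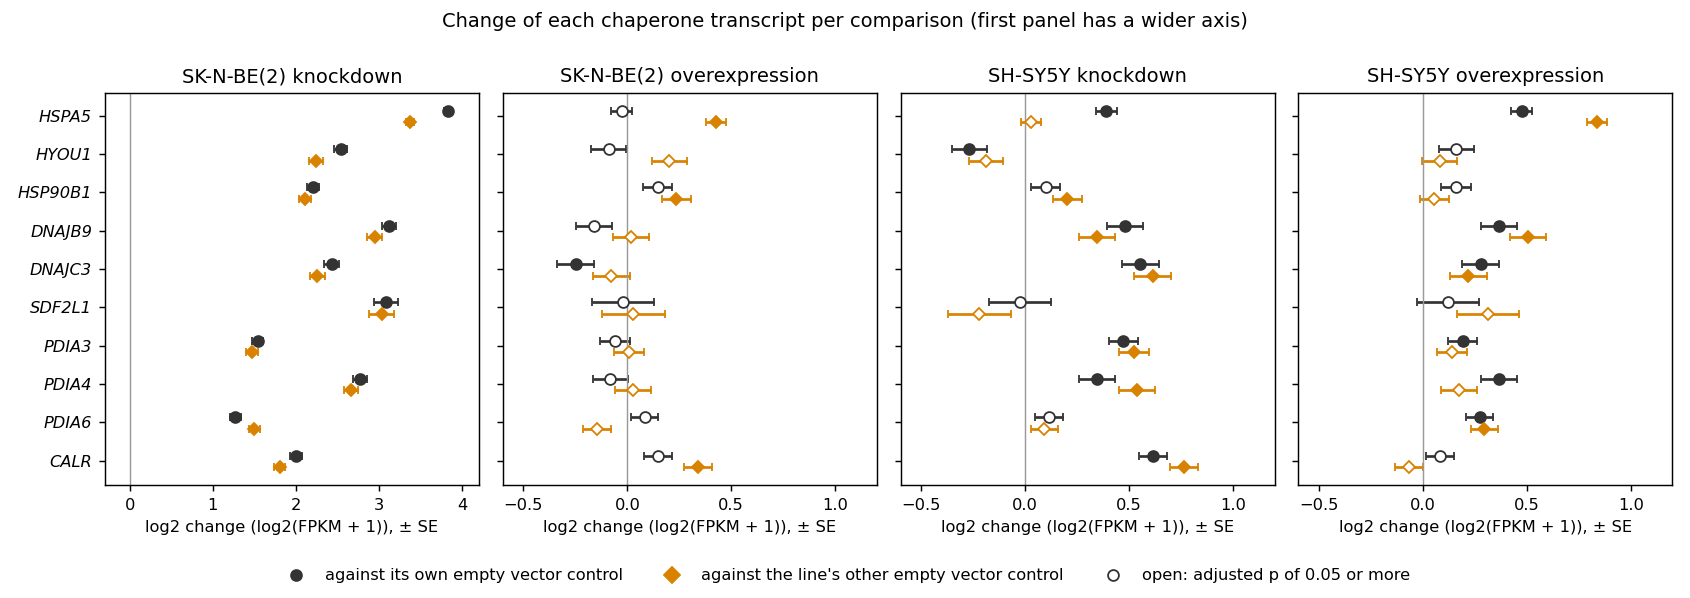
Change of each chaperone (horizontal axis, difference of mean log2(FPKM + 1) with its SE, wider axis in the first panel) in the 4 comparisons, against its own empty vector control (black circles) and against the other empty vector control of the line (orange diamonds); open symbols have an adjusted p of 0.05 or more. In SK-N-BE(2) knockdown all symbols are filled and lie at 1.27 or more, while HSPA5 in SK-N-BE(2) overexpression moves to 0.43 and in SH-SY5Y knockdown to 0.03 with the other control.

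The empty vector cells of the lines were compared as well, with 7 of 10 chaperones called. HSP90B1 averaged 142 ± 5.99 FPKM in SK-N-BE(2) controls and 146 ± 6.27 FPKM in SH-SY5Y controls (SD, 6 libraries each). PDIA4 averaged 54.6 ± 2.42 FPKM in SK-N-BE(2) controls and 56.5 ± 4.62 FPKM in SH-SY5Y controls, and neither gene was called. DNAJC3 differed most, with 8.99 ± 0.75 FPKM in SK-N-BE(2) controls and 4.54 ± 0.24 FPKM in SH-SY5Y controls (change 0.85 ± 0.06). In all, 4 chaperones were called higher in SK-N-BE(2) (DNAJC3, CALR, PDIA3, HYOU1) and 3 lower (SDF2L1, DNAJB9, PDIA6), where 33.5% of tested genes were called higher and 43.8% lower. PDIA6 (-0.13 ± 0.05) was not called when libraries were scaled by the median of ratios (-0.03).

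Levels are compared between genes here per transcript length, as FPKM. In all 8 groups CALR and HSP90B1 were among the 3 most abundant of the 10, and DNAJB9, DNAJC3 and SDF2L1 were the 3 least abundant. Across the groups, each chaperone was highest in SK-N-BE(2) knockdown cells, and no library of another group reached that range. Below it the genes differed in how far the groups lay apart. For HSP90B1 and SDF2L1 every one of the 7 other groups overlapped its neighbour in the order, HSP90B1 running from 162 ± 8.86 FPKM in SK-N-BE(2) overexpression to 138 ± 0.88 FPKM in SK-N-BE(2) knockdown controls. For HYOU1 1 of those 6 neighbouring pairs overlapped, for HSPA5 and CALR 2, for DNAJB9, PDIA4 and PDIA6 3, and for DNAJC3 and PDIA3 4. For CALR, PDIA3 and PDIA4 the second group was SH-SY5Y knockdown (238 ± 9.59, 68.1 ± 2.69 and 76.9 ± 2.18 FPKM). For HSPA5 and PDIA6 it was SH-SY5Y overexpression (125 ± 3.96 and 96.4 ± 1.38 FPKM). For DNAJC3 and HYOU1 it was an empty vector group, the SK-N-BE(2) overexpression controls (9.58 ± 0.55 and 30.5 ± 0.51 FPKM). None of these overlapped the group after it.

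Beyond the 10 chaperones, 44 other folding factors of the endoplasmic reticulum were tested. In SK-N-BE(2) knockdown cells 29 of them rose and 9 fell, with a median change of 0.44, where 27.4% of all tested genes were called higher and 55.7% in either direction. MANF, a resident of the compartment that binds HSPA5, averaged 74.0 ± 10.4 FPKM in knockdown libraries and 11.1 ± 0.28 FPKM in controls (change 2.63 ± 0.09). DNAJB11, a J-domain partner of HSPA5 that forms a complex with SDF2L1, averaged 57.0 ± 9.70 FPKM in knockdown libraries and 10.2 ± 0.23 FPKM in controls (change 2.36 ± 0.07). SERPINH1, the collagen chaperone, changed by 2.06 ± 0.08 and the thioredoxin-like TXNDC11 by 1.55 ± 0.05. In SH-SY5Y knockdown cells 26 rose and 6 fell (median 0.22; 26.3% and 29.6% of all tested genes), with SERPINH1 at 1.23 ± 0.08.

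**Figure D4:**
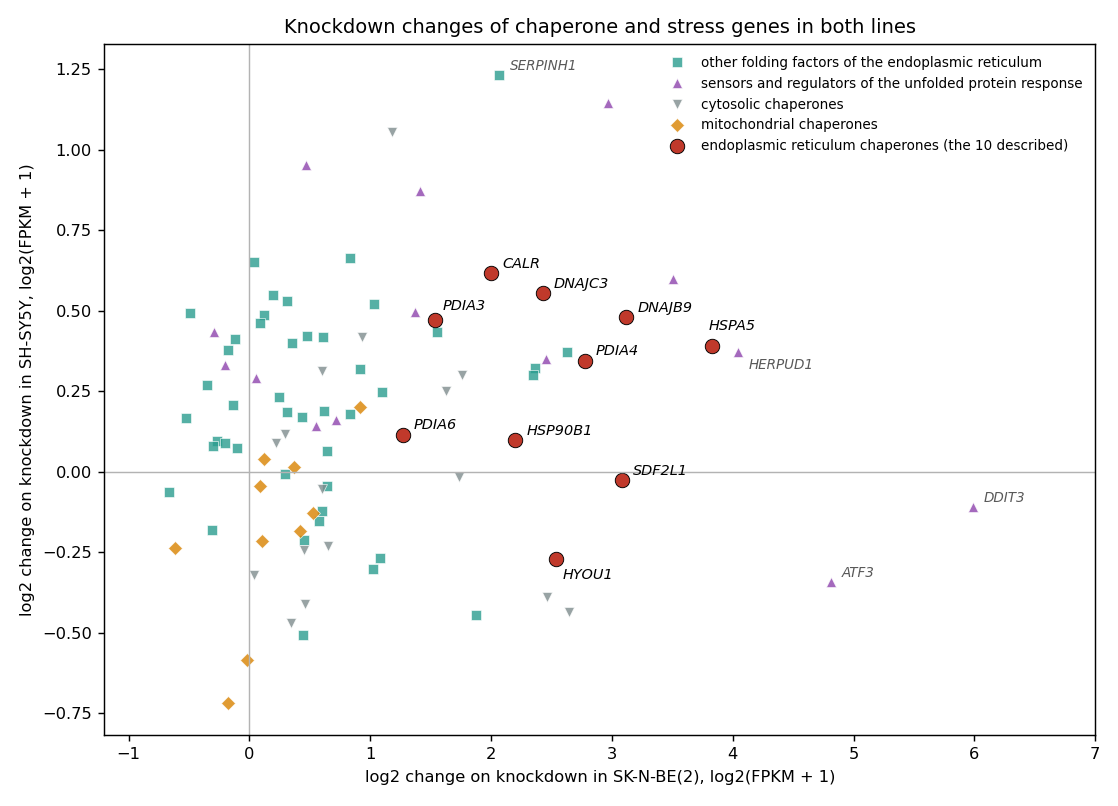
Change on NDUFS6 knockdown in SK-N-BE(2) (horizontal axis) and in SH-SY5Y (vertical axis), as differences of mean log2(FPKM + 1), for the 10 chaperones (red, named) and 4 other gene lists, some of their members named in grey. The chaperones lie between 1.27 and 3.83 on the horizontal axis and between -0.27 and 0.62 on the vertical one.

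Of 14 sensors and regulators of the unfolded protein response, 11 rose and 2 fell in SK-N-BE(2) knockdown cells (median 1.39), where 27.4% of all tested genes were called higher. In SH-SY5Y knockdown cells 10 rose and 1 fell (median 0.36), where 26.3% of all tested genes were called higher and 29.6% lower. XBP1, which drives chaperone genes once its RNA is spliced, averaged 109 ± 3.65 FPKM in SK-N-BE(2) knockdown libraries and 19.0 ± 0.86 FPKM in controls (change 2.45 ± 0.06). HERPUD1, a factor of protein disposal, averaged 109 ± 2.67 FPKM in knockdown libraries and 5.66 ± 0.46 FPKM in controls (change 4.04 ± 0.07). DDIT3, also called CHOP, averaged 273 ± 15.8 FPKM in knockdown libraries and 3.33 ± 0.48 FPKM in controls (change 5.99 ± 0.14), and ATF3 averaged 44.0 ± 3.56 FPKM in knockdown libraries and 0.60 ± 0.15 FPKM in controls. DDIT3 shares exons with another gene, so its value is uncertain. ATF4 changed by 1.37 ± 0.07 and ATF6 by 0.55 ± 0.10.

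In SH-SY5Y knockdown cells the regulators parted. XBP1 (0.35 ± 0.06), HERPUD1 (0.37 ± 0.07) and ATF4 (0.50 ± 0.07) rose, ATF3 fell by 0.34 ± 0.08, and DDIT3 averaged 7.41 ± 2.32 FPKM in knockdown libraries and 7.91 ± 1.25 FPKM in controls (-0.11 ± 0.14, limma adjusted p = 0.527). Between the lines the knockdown change of DDIT3 differed by 6.10 ± 0.19, beside 3.44 ± 0.07 for HSPA5.

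Chaperones of other compartments were counted in the same way, and their difference from the 10 was not tested. Of 16 cytosolic chaperones, 15 rose and none fell in SK-N-BE(2) knockdown cells (median 0.63), where 27.4% of all tested genes were called higher. In SH-SY5Y knockdown cells 4 rose and 7 fell (median -0.04). The rises were close to the 26.3% higher among all tested genes, and the falls lay above the 29.6% lower. HSPA1B, a stress-induced Hsp70 whose reads are hard to tell from those of its near-identical neighbour HSPA1A, changed by 2.46 ± 0.13 in SK-N-BE(2), BAG3 by 1.76 ± 0.09, DNAJB1 by 1.73 ± 0.09 and HSPA4 by 0.65 ± 0.04. Of 10 mitochondrial chaperones and proteases, 5 rose and 2 fell in SK-N-BE(2) knockdown cells (median 0.12), and 1 rose and 4 fell in SH-SY5Y knockdown cells (median -0.16). Called in either direction were 55.7% of all tested genes in SK-N-BE(2) and 56.0% in SH-SY5Y, so the number of these mitochondrial genes called was near the background in SH-SY5Y. HSPA9, the mitochondrial Hsp70, changed by 0.91 ± 0.06 in SK-N-BE(2) and HSPE1, a mitochondrial co-chaperonin, by -0.61 ± 0.09, while DNAJA3 (0.37 ± 0.05) and the protease LONP1 (0.42 ± 0.07) rose a little.

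In overexpression cells of SH-SY5Y, 10 of the 44 other folding factors rose and 6 fell (median 0.05). Of the 14 regulators, 2 rose and 1 fell (median -0.05). Among all tested genes 15.4% were called higher and 17.2% lower, and a difference of the lists from these shares was not tested. XBP1 (0.33 ± 0.06) and HERPUD1 (0.43 ± 0.07) rose there and ATF3 fell by 0.98 ± 0.08. In overexpression cells of SK-N-BE(2), XBP1 fell by 0.29 ± 0.06, and 8 of the 44 folding factors rose and 5 fell. There 12.9% of all tested genes were called higher and 16.8% lower, and a difference from these shares was not tested either.

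The genes whose 8 group means were most like the mean profile of the chaperones were BMP6, CHRNA9, KLF2, DNAJB11, SYVN1, MECOM, HSPA6 and VIT, with Pearson correlations of 0.988 to 0.994 over 8 groups. These correlations reflect mainly the contrast of SK-N-BE(2) knockdown with all other groups. DNAJB11 was the most abundant of them in SK-N-BE(2) knockdown cells. Like the chaperones, DNAJB11 and SYVN1 were measured in every group, SYVN1 with means of 3.82 to 15.8 FPKM. BMP6, CHRNA9, KLF2, MECOM, HSPA6 and VIT had means of 0.371 FPKM or less in every other group. They passed the filter on low values only through SK-N-BE(2) knockdown, so their likeness is no independent result. BMP6 (1.12 FPKM), KLF2 (1.33 FPKM) and VIT (3.08 FPKM) had low means in SK-N-BE(2) knockdown libraries and were listed at 0 in their controls.

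Some values share reads with other loci. PDIA3 has a processed copy, PDIA3P1, with 98.1% identity over 1509 aligned bases, which was at 3.25 to 6.8 FPKM, far below PDIA3. HSPA5 has copies of 92.6% and 93.7% identity, at no more than 2.21 FPKM. DNAJB9 overlaps exons of THAP5 (9.60 to 15.9 FPKM) and PNPLA8 (4.15 to 11.6 FPKM) on the opposite strand. The libraries were strand-specific per the labels, but the counting setting is not given, so the low DNAJB9 values outside SK-N-BE(2) knockdown may hold reads of these genes.

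The cells carried most markers of their type, and some stroma markers as well. COL3A1 (up to 161 FPKM) and LUM (up to 152 FPKM) had at least 1 FPKM in all 24 libraries, while COL1A2 stayed at or below 0.901 FPKM. Of 10 neuroblastoma markers, 9 had at least 1 FPKM in all 24 libraries, and TH had it in 12, all of SK-N-BE(2). The summed marker level was 384 to 499 FPKM in SK-N-BE(2) knockdown libraries and 741 to 758 FPKM in their controls, and 671 to 701 FPKM in SH-SY5Y knockdown libraries and 966 to 979 FPKM in their controls. Of the 10, 1 was called higher and 8 lower in SK-N-BE(2) knockdown (median change -0.91). In SH-SY5Y knockdown 3 were called higher and 5 lower (median change -0.17). Of all tested genes, 55.7% were called in either direction in SK-N-BE(2) knockdown and 56.0% in SH-SY5Y knockdown. Of 5 secretory and plasma cell markers, JCHAIN, MZB1, IRF4 and PRDM1 stayed at or below 0.206 FPKM in every library, while SDC1 had at least 1 FPKM in all 24. SDC1, a surface proteoglycan that plasma cells share with other cells, averaged 7.64 ± 0.77 FPKM in SK-N-BE(2) knockdown libraries and 19.0 ± 0.62 FPKM in their controls (change -1.22 ± 0.06). In SH-SY5Y it averaged 25.7 ± 0.41 FPKM in knockdown libraries and 21.2 ± 0.09 FPKM in their controls (change 0.27 ± 0.06). The 6 immune markers summed to 0.390 to 0.765 FPKM in SK-N-BE(2) knockdown libraries and 0.177 to 0.353 FPKM in their controls, and to 8.98 to 11.8 FPKM in SH-SY5Y knockdown libraries and 2.02 to 2.77 FPKM in their controls. Among them PTPRC, the defining marker of blood cells, stayed at or below 0.143 FPKM, and CD68, a lysosomal protein of macrophages, reached 1 FPKM in 6 libraries. CD68 averaged 10.1 ± 1.5 FPKM in SH-SY5Y knockdown libraries and 1.89 ± 0.37 FPKM in their controls (change 1.94 ± 0.09), and it differed between the SH-SY5Y controls too (1.43 ± 0.09, knockdown minus overexpression control). The 8 stroma markers summed to 260 to 270 FPKM in SH-SY5Y knockdown libraries and 129 to 134 FPKM in their controls, and to 175 to 203 FPKM in SK-N-BE(2) knockdown libraries and 158 to 165 FPKM in their controls. Of the 7 that were tested, 6 were called higher and 1 lower in SH-SY5Y knockdown (median change 0.78). In SK-N-BE(2) knockdown 2 were called higher and 1 lower (median change -0.07), so the higher sum there was not shared by most of them. Mitochondrially encoded transcripts took 27.8 ± 0.40% of all FPKM in SK-N-BE(2) knockdown libraries and 33.8 ± 0.22% in their controls, but 37.0 ± 0.97% in SH-SY5Y knockdown libraries and 31.1 ± 0.31% in their controls. The part of these shifts in the chaperone changes was not tested, and in bulk RNA fewer cells of a kind and less RNA per cell cannot be told apart.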

How the data were processed

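Total RNA of both lines had been made into strand-specific TruSeq libraries, per the labels' protocols. FastQC 0.11.2, STAR (version not given), StringTie 1.3.1c and the hg38 build are named in the submitters' processing notes. The deposited table holds FPKM values that the authors made per gene, which already remove library size and transcript length; the sources used here do not give counting settings, annotation release or read counts. Depth is thus unknown, and precision rests on how far libraries lie apart within groups. The model below takes a single spread per gene over all 8 groups. A group with a wide spread therefore adds to the SE of every comparison.

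From these values, the 15903 genes that reached 1 FPKM in 3 or more libraries (15902 counted, NDUFS6 left out) were taken as log2(FPKM + 1). A single limma model (limma 3.58.1, R 4.3.3; tables read by data.table, version 1.17.8) held all 24 libraries in 8 groups and left 16 residual degrees of freedom; eBayes was run with trend and robust on. Tests were two-sided with Benjamini-Hochberg adjustment over all tested genes and a threshold of 0.05. Promoter motifs were searched in RefSeq sequences, and near copies were aligned with minimap2 (2.31-r1302) to GENCODE release 29 transcripts.

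Named genes were the 10 chaperones, NDUFS6, up to 4 genes per other list with the smallest adjusted p in SK-N-BE(2) knockdown, XBP1, ATF4, DDIT3, ATF6 and HERPUD1, and the 8 genes most like the chaperones' mean profile. The chaperones and all lists were chosen with earlier results of these data known. Alternatives were a pseudocount of 0.1, no filter, a mean of at least 5 FPKM, TPM or median-of-ratios scaling, only the groups compared, a replicate block, no trend or robust moderation, the other empty vector control, and each library left out.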

Additional observations from a re-analysis of the deposited data

Results flagged for a closer look

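The knockdown change differed between SK-N-BE(2) and SH-SY5Y for all 10 chaperones by the interaction term of limma (SK-N-BE(2) minus SH-SY5Y, log2, with SE). The differences were 3.44 ± 0.07 for HSPA5, 3.11 ± 0.21 for SDF2L1, 2.81 ± 0.12 for HYOU1, 2.64 ± 0.12 for DNAJB9, 2.43 ± 0.12 for PDIA4, 2.10 ± 0.10 for HSP90B1, 1.87 ± 0.13 for DNAJC3, 1.38 ± 0.10 for CALR, 1.16 ± 0.09 for PDIA6 and 1.07 ± 0.10 for PDIA3. Of all tested genes, 29.5% were called higher in SK-N-BE(2) by this term. In SK-N-BE(2) every chaperone was higher in 3 of 3 knockdown libraries than in any control library, as was the case for 30.3% of tested genes.

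The overexpression change was lower in SK-N-BE(2) than in SH-SY5Y for DNAJB9 (-0.53 ± 0.12), DNAJC3 (-0.53 ± 0.13), HSPA5 (-0.50 ± 0.07) and PDIA4 (-0.45 ± 0.12) by the same kind of test. Of all tested genes, 18.5% were called lower by it. No group had 4 or more libraries, so single libraries were not screened for outlying values.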

How the results depend on the processing

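All 10 chaperones were called higher in SK-N-BE(2) knockdown, and higher in SK-N-BE(2) by the knockdown difference between lines, under every alternative run. Limits lie in the smaller comparisons and in the unknown depth. With the other empty vector control, SH-SY5Y knockdown had 0 chaperones lower (main 1), SK-N-BE(2) overexpression had 3 higher (main 0) and 0 lower (main 1), HSPA5 in SK-N-BE(2) overexpression was 0.43 (main -0.03), and SH-SY5Y overexpression had 4 higher (main 6), CALR turning to -0.07 (main 0.08). The 1 chaperone lower in SK-N-BE(2) overexpression became 0 with no filter, only the groups compared or median-of-ratios scaling, and 0 to 1 with a library left out, while 0 to 1 were then higher. Over the alternatives, SH-SY5Y knockdown had 6 to 8 chaperones higher and SH-SY5Y overexpression had 4 to 8 (main 6 in each). Between SH-SY5Y controls, 3 chaperones were higher with only the groups compared and 1 with TPM (main 0). Between SK-N-BE(2) controls, 6 were lower with only the groups compared and 8 with TPM (main 3), and 0 were higher with TPM (main 1). With TPM, 7 chaperones had a lower overexpression change in SK-N-BE(2) (main 4). The causes were not tested.

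Same-numbered libraries did not pair throughout (correlations of deviations -0.08 to 0.37, in no comparison all 3 above 0.1). Only in SK-N-BE(2) overexpression were 2 of the 3 above 0.1 (0.14 and 0.37). Differently numbered libraries were correlated there too, as overexpression replicate 1 with control replicate 3 (0.28) or 2 (-0.38). With a replicate block, SH-SY5Y overexpression had 5 chaperones higher (main 6), PDIA3 being lost (0.19, limma adjusted p = 0.068), and no other call of a chaperone changed.

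TPM moved the median of all genes to -0.10 in SH-SY5Y knockdown, -0.11 between SK-N-BE(2) controls, -0.12 between lines at control and 0.20 in the knockdown difference between lines, where the medians of the 10 chaperones were 0.27 in SH-SY5Y knockdown, -0.25 between SK-N-BE(2) controls, -0.07 between lines at control and 2.48 in the knockdown difference. The share of higher calls was 60.8% with TPM (main 49.3%) in SK-N-BE(2) knockdown, 35.4% (main 47.0%) in SH-SY5Y knockdown, 32.7% (main 43.4%) in SK-N-BE(2) overexpression, 25.1% (main 45.1%) between SK-N-BE(2) controls, 69.8% (main 52.8%) in the knockdown difference and 38.3% (main 49.8%) in the overexpression difference. Calls over all genes in SK-N-BE(2) overexpression were 1186 with only the groups compared, 2745 without overexpression replicate 2 and 3075 without overexpression control replicate 3 (main 4715), and in SH-SY5Y overexpression 8809 against the other control (main 5185). With a mean of at least 5 FPKM, which tests 7219 genes, they were 4843 in SK-N-BE(2) knockdown (main 8854), 4592 in SH-SY5Y knockdown (main 8899), 2885 in SH-SY5Y overexpression (main 5185), 3230 and 3207 between SK-N-BE(2) and SH-SY5Y controls (main 5487 and 5763), 5940 between lines at control (main 12292), 4573 in the knockdown difference (main 8873) and 3374 in the overexpression difference (main 5849).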

Other observations

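The Pearson correlation of each chaperone with the mean profile of the 10, over 8 group means, was 0.940 (DNAJC3) to 0.995 (HSP90B1), a description in which each gene is part of the profile and all points share the high SK-N-BE(2) knockdown group. In SH-SY5Y, overexpression replicate 3 and knockdown replicate 3 each had the highest value of their 3 libraries for 9 of 10 chaperones, and in SK-N-BE(2) knockdown controls replicate 3 had it for 8 of 10. Of the 39 other folding factors with a promoter in the RefSeq table, 3 held ERSE (CANX, CRELD2 and ERO1B) and 2 held the UPRE core (DNAJC10 and TXNDC11), genes named here for these matches.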
